A study of Mus musculus with 11 samples.

Results

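Fnip2, Resf1, Ell2, Itprip and Itpkc are 5 genes, of 55421 in the count table, that were chosen by their measured fold change and p between infarcted mouse hearts given the ADAM10 inhibitor GI254023X (A10i) and infarcted hearts given only its solvent, where they stood among the clearest falls. They are seldom discussed in the infarcted heart. The 11 mice were female C57BL/6J animals aged 8 weeks, and heart RNA was sequenced 3 days after surgery. In 4 DMSO mice and 4 A10i mice the left anterior descending artery was tied permanently, and the infarct was collected with its border zone. The 3 sham mice were operated on without ligation, received DMSO and gave healthy heart tissue. A10i was dissolved in DMSO and delivered at 100 mg/kg by an osmotic minipump under the skin, so solvent was common to all 3 groups and the inhibitor was given to whole animals. No sham mice with the inhibitor were analysed here.

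As background, ADAM10 is a membrane protease that cuts the outer part off cell surface proteins. After a coronary artery is closed, neutrophils enter the dying muscle first, macrophages follow and fibroblasts then build the scar. The 5 genes act in different places in the cell. Fnip2 encodes a partner of folliculin, which acts at the lysosome and binds AMPK. Resf1 encodes a factor that works with the histone methyltransferase SETDB1 in silencing retroelements. Ell2 encodes an elongation factor of RNA polymerase II and a subunit of the super elongation complex. Itprip encodes a protein that binds the inositol trisphosphate receptor, the calcium channel of the endoplasmic reticulum, and Itpkc encodes a kinase that phosphorylates inositol trisphosphate itself.

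The genes lie on 5 chromosomes. In GRCm38, Fnip2 (ENSMUSG00000061175) spans chr3:79455974-79567796 on the minus strand with 8364 exonic bases, and Resf1 (ENSMUSG00000032712) spans chr6:149309414-149335663 on the plus strand with 9629. Ell2 (ENSMUSG00000001542) lies at chr13:75706757-75772364 on the plus strand with 9828 exonic bases. Itprip (ENSMUSG00000117975) lies at chr19:47894602-47919299 on the minus strand with 3950, and Itpkc (ENSMUSG00000003752) at chr7:27207172-27228661 on the minus strand with 5285. The fall with A10i that the 5 genes share was set by their choice, and shared control was not tested. The sequences just upstream are shown as a description, and for Ell2 the stretch around its motif match. They come from RefSeq promoters on GRCm38.p6 and read 5′ to 3′ on the gene's strand, and capitals mark the one motif match found.
Fnip2, chr3:79567797-79567896: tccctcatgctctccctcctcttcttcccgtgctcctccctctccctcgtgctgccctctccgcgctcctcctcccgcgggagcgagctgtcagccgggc
Resf1, chr6:149309314-149309413: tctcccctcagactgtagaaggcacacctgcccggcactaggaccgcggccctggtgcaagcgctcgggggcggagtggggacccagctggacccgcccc
Ell2, chr13:75707275-75707304: aagacgagacaTGACGTCAgataagattaa
Itprip, chr19:47919324-47919423: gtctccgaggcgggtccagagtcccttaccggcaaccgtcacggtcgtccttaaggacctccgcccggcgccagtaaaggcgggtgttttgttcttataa
Itpkc, chr7:27228662-27228761: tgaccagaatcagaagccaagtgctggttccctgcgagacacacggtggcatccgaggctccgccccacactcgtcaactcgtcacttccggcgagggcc

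Searched on both strands from 250 bases before to 50 after each RefSeq start, the cyclic AMP response element TGACGTCA was present in Ell2 alone of the 5 genes, with its first base at -198, and in 1.79% of 32851 promoters. That stretch of Ell2 lies within an exon of another annotated Ell2 transcript. The AP-1 motif TGANTCA, the E-box CACGTG, the STAT motif TTCNNNGAA, the EGR motif GCGTGGGCG, the NF-kB motif and the CArG box had no match in these windows in any of the 5, and were held by 0.612% (EGR) to 8.3% (STAT) of all promoters.

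Libraries held 21702623 to 29511768 counts. Mitochondrial genes took 21.5% to 22.2% of the counts in sham, 14.8% to 18.6% in DMSO and 15.7% to 17.9% in A10i hearts. The label of heart tissue held, since all 10 cardiomyocyte markers were detected, with a summed level of 96190 to 97610 CPM (read counts relative to library size, here scaled by TMM) in sham, 43670 to 64990 in DMSO and 55370 to 75800 in A10i hearts. In such whole tissue, fewer cells of a type and less RNA per cell cannot be told apart.

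The mean of both infarcted arms was higher than sham for Resf1, Ell2, Itpkc and Itprip and lower for Fnip2. For Itprip and Itpkc that mean rests mostly on the DMSO arm. In A10i mice alone they stood 0.11 ± 0.07 (SE) and 0.16 ± 0.11 above sham on the log2 scale, against 0.71 ± 0.09 and 1.04 ± 0.14 in DMSO mice. This comparison weighs both arms equally and does not use the difference between them, on which the genes were chosen, although the mice are the same. A choice by p favours genes with little spread in those mice. That spread also enters the adjusted p-values given here, which may therefore be too small. At an adjusted p under 0.01 it called 14.9% of the 17480 genes tested higher and 11.5% lower. All 5 genes passed the filter on low counts. Values below are CPM per mouse, and each adjusted p comes from the quasi-likelihood test of edgeR, adjusted by Benjamini-Hochberg over all genes tested.

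Resf1 had the largest rise of the 5. Its level was 35.1, 37.5 and 30.3 CPM in the sham mice, 95.0, 90.7, 89.3 and 122 in the DMSO mice and 55.7, 52.3, 46.9 and 61.4 in the A10i mice. Every infarcted mouse stood above every sham mouse, and the A10i mice lay between the other groups without touching either. The mean of both arms was 2.14-fold that of sham (log2 fold change 1.09 ± 0.12 SE, adjusted p = 5.19e-05).

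Ell2, which helps the polymerase through paused stretches of a gene, had the same order of groups. The sham mice stood at 21.1, 20.1 and 19.9 CPM, the DMSO mice at 54.2, 44.2, 38.3 and 50.3 and the A10i mice at 30.2, 26.0, 24.5 and 26.2. The lowest A10i mouse was still above the highest sham mouse, and the highest A10i mouse was below the lowest DMSO mouse. The rise over sham was 1.74-fold (log2 fold change 0.79 ± 0.10 SE, adjusted p = 0.000168).

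Itpkc, the least abundant of the 5, rose from 6.41, 6.44 and 6.54 CPM in sham to 14.3, 10.4, 14.1 and 14.5 in DMSO mice, and stood at 7.54, 7.78, 6.77 and 6.70 in A10i mice. The A10i mice were above the sham mice by a narrow margin, and DMSO mouse A127 was lower than the other DMSO mice. Itpkc held 148, 172 and 162 counts in the sham libraries and 190, 201, 164 and 149 in the A10i libraries. At such counts, counting noise can be larger than that margin. The mean of both arms was 1.51-fold that of sham (log2 fold change 0.60 ± 0.12 SE, adjusted p = 0.00164). With any one of the sham mice left out the adjusted p was 0.0105 to 0.0115, just past 0.01.

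Itprip, whose product acts on the receptor for the molecule that Itpkc phosphorylates, had 20.6, 19.6 and 19.3 CPM in sham, 33.5, 30.2, 35.4 and 30.5 in DMSO and 20.1, 22.3, 21.6 and 21.2 in A10i hearts. All DMSO mice were above all sham mice, whereas the A10i mice overlapped sham. The mean of both arms was 1.32-fold that of sham (log2 fold change 0.41 ± 0.07 SE, adjusted p = 0.000932).

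Fnip2 had another pattern. Its level was 48.3, 44.1 and 49.7 CPM in sham, 52.3, 46.7, 47.3 and 44.7 in DMSO and 33.9, 31.8, 30.3 and 26.5 in A10i hearts. DMSO mice overlapped sham mice, and all A10i mice were below both. The mean of both arms was 0.807-fold that of sham (log2 fold change -0.31 ± 0.08 SE, adjusted p = 0.00732), but this average joins an arm at the sham level with an arm below it, and the arms were set apart by the choice of genes. The call was lost in 8 of 11 fits that left out 1 mouse (adjusted p up to 0.0472) and with scaling by library size alone (log2 fold change -0.11, adjusted p = 0.30).

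**Figure D1:**
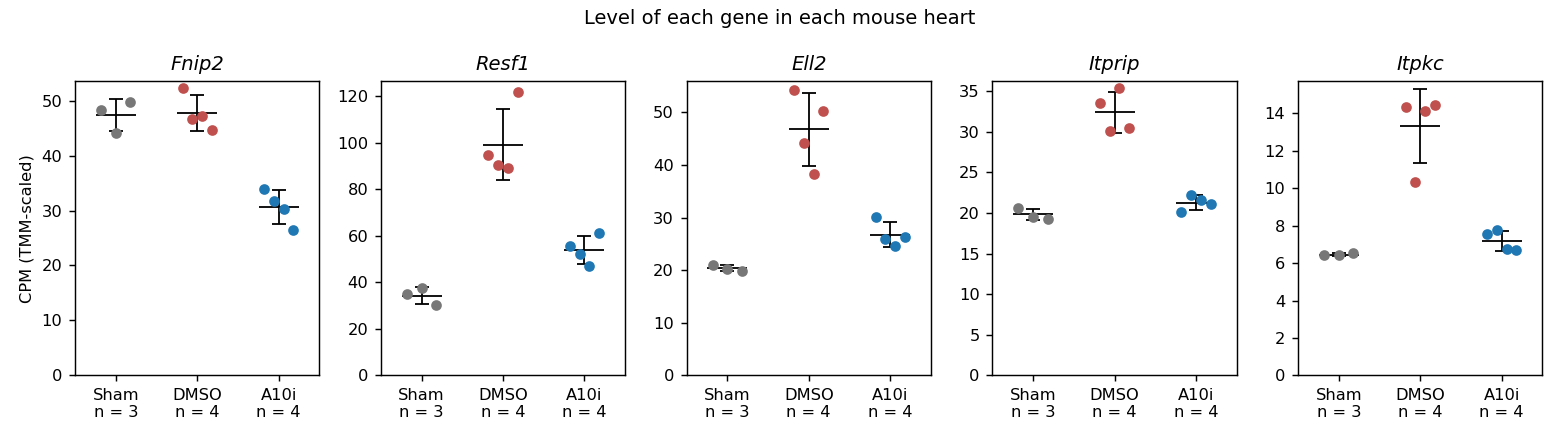
Each point is the level of a gene in 1 mouse heart, in CPM scaled by TMM on a linear axis from 0, for 3 sham, 4 DMSO and 4 A10i mice; bars give the mean and SD. DMSO hearts stand above sham in all panels but Fnip2, and A10i hearts below DMSO hearts in all 5, the pattern on which the genes were chosen.

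Set side by side, the arms differed in how far each gene stood from sham. These values share the sham mice, and the arms differ by the contrast that chose the genes, so they are given with no call. Resf1 was 1.53 ± 0.13 (SE) above sham on the log2 scale in DMSO mice and 0.66 ± 0.10 in A10i mice. Ell2 was 1.19 ± 0.12 above in DMSO mice and 0.40 ± 0.08 in A10i mice. Itpkc stood 1.04 ± 0.14 above sham in DMSO mice and 0.16 ± 0.11 in A10i mice, and Itprip 0.71 ± 0.09 and 0.11 ± 0.07. Expressed in CPM, the rise in A10i mice was 30.4% of that in DMSO mice for Resf1, 24.1% for Ell2, 11.5% for Itprip and 10.8% for Itpkc. Fnip2 was 0.01 ± 0.08 from sham in DMSO mice and -0.63 ± 0.09 in A10i mice, the one of the 5 with a negative value in the inhibitor arm.

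The groups of DMSO and sham mice did not overlap for 4 of the 5 genes, all higher in DMSO, an arrangement found in 25.0% of all genes tested. All A10i mice were above all sham mice for Resf1, Ell2 and Itpkc, as for 24.7% of genes tested. For Itpkc the margin was 6.70 CPM in the lowest A10i mouse against 6.54 in the highest sham mouse, within what counting noise can produce. All A10i mice were below all sham mice for Fnip2, as for 22.9%. The values of both infarcted arms entered the choice of the genes, so these arrangements are a description.

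**Figure D2:**
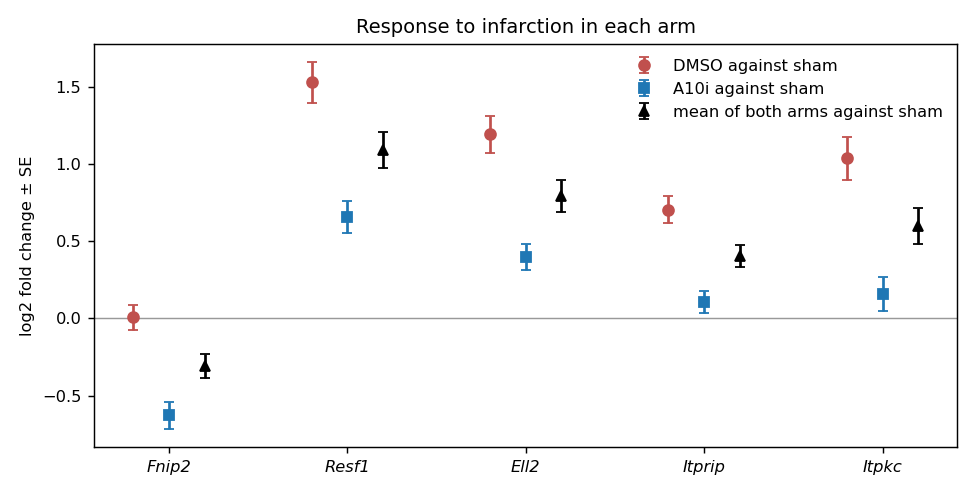
Points give the log2 fold change against the 3 sham hearts for DMSO mice (circles), A10i mice (squares) and the mean of both arms (triangles), with bars of 1 SE. Fnip2 lies at 0.01 in DMSO mice and at -0.63 in A10i mice, and the other genes lie above 0 in both arms, with Itprip and Itpkc near 0 in A10i mice.

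The contrast that chose the genes is given here as a description, and its adjusted p-values show only how the choice was made. Levels in A10i hearts were lower than in DMSO hearts by 35.9% for Fnip2, 45.5% for Resf1, 42.8% for Ell2, 34.3% for Itprip and 45.9% for Itpkc. On the log2 scale the differences were -0.64, -0.87, -0.80, -0.60 and -0.88, with SEs of 0.08 to 0.13. No gene of the 16792 tested reached an adjusted p under 0.01 in edgeR on these 8 hearts. At an unadjusted p under 0.05, 1193 (7.10%) were higher and 1130 (6.73%) lower. DESeq2 called 104 higher and 123 lower at an adjusted p under 0.01, with the 5 genes among the lower. At an adjusted p under 0.05 in edgeR, 9 genes (0.0536%) were lower. Fnip2, Resf1, Ell2 and Itprip were among them, each at 0.0479 to 0.048. Ell2 was the last inside that limit, and Itpkc was the first outside it, at 0.0514. The other genes inside were Gm5483, Atf3, Dusp5, Adamts9 and Ier3, and Clcf1 (0.0514) and Bhlhe40 (0.0707) followed Itpkc. For all 5 genes the highest A10i mouse was below the lowest DMSO mouse, as for 4.11% of genes tested.

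Among markers of other cell types, the neutrophil list was lower in A10i than in DMSO hearts. The median summed levels of macrophage, fibroblast and endothelial markers were higher in A10i hearts. They were 966 against 798, 5795 against 4035 and 1181 against 1053 CPM in DMSO hearts. The summed level of 12 neutrophil markers was 6.29 to 8.19 CPM in sham, 126.6 to 241 in DMSO and 36.5 to 97.99 in A10i hearts, and Trem1 was at 0 in all sham hearts. All 12 rose with infarction, and 11 of them were lower with A10i at an unadjusted p under 0.05, with none at an adjusted p under 0.01 in edgeR and 5 lower in DESeq2. The summed level of 12 macrophage markers was 378 to 412 CPM in sham, 648 to 1088 in DMSO and 801 to 1509 in A10i hearts. That of 10 fibroblast markers was 1324 to 1417, 2069 to 6585 and 5043 to 9148 CPM, and that of 10 endothelial markers 1204 to 1213, 980 to 1101 and 1118 to 1228, in the same order. The 11 lymphocyte markers summed to 1.07 to 4.52 CPM over all hearts. The group order of Resf1, Ell2, Itprip and Itpkc is thus also that of the neutrophil markers. It is not particular to them, since the means of Cd14 and Itgam (macrophage list), Pdgfra (fibroblast list) and Cldn5 and Esam (endothelial list) had it too. In these 3 lists 5, 3 and 2 markers were higher with A10i, and 1, 0 and 0 lower, at an unadjusted p under 0.05 in edgeR. The part of any cell type in the values of the 5 genes was not tested.

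Mice of a group differed by a moderate amount in these genes. The coefficient of variation was 1.01% (Itpkc) to 10.6% (Resf1) in sham, 6.75% (Fnip2) to 15.5% (Resf1) in DMSO and 4.31% (Itprip) to 11.2% (Resf1) in A10i hearts. By this coefficient Resf1 had the widest spread of the 5 in each group, in DMSO hearts by a narrow margin (15.5% against 14.9% for Ell2). Ranked among all genes tested by the SD of log2 CPM, the 5 lay between percentiles 2.47 (Itpkc) and 64.3 (Resf1) in sham. They lay between 12.5 (Fnip2) and 53.2 (Itpkc) in DMSO and 7.65 (Itprip) and 44.0 (Resf1) in A10i hearts. A choice by p between DMSO and A10i mice favours genes with little spread in those arms, so these ranks are a description. No single mouse set the extremes, since the lowest DMSO mouse was A129 for Fnip2, A128 for Resf1 and Ell2, and A127 for Itprip and Itpkc. In A10i hearts, A119 was lowest for Resf1 and Ell2, A120 for Fnip2 and Itpkc, and A116 for Itprip.

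Per kilobase of exon, the order of the 5 genes changed with the group. In sham hearts Fnip2 was highest at 5.67 ± 0.35 CPM per kb (SD, n = 3), followed by Itprip at 5.02 ± 0.17, Resf1 at 3.56 ± 0.38, Ell2 at 2.07 ± 0.06 and Itpkc at 1.22 ± 0.01. No neighbours overlapped in that order. In DMSO hearts Resf1 came first at 10.3 ± 1.6 CPM per kb (SD, n = 4), then Itprip at 8.20 ± 0.64, Fnip2 at 5.71 ± 0.39, Ell2 at 4.76 ± 0.71 and Itpkc at 2.52 ± 0.37, and the mice of Fnip2 and Ell2 overlapped. In A10i hearts Resf1 and Itprip overlapped, at 5.61 ± 0.63 and 5.39 ± 0.23 CPM per kb (SD, n = 4). Fnip2 followed at 3.66 ± 0.38, Ell2 at 2.72 ± 0.24 and Itpkc at 1.36 ± 0.10.

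At an adjusted p under 0.01, edgeR called none of the tested relatives of these genes after infarction. Between the arms it called no gene at all, the 5 included. Of 7 paralogs, Ell3 and Itpka were too low to be tested, and none of the other 5 was called after infarction or between the arms at an adjusted p under 0.01. After infarction 14.9% of all genes tested were called higher and 11.5% lower, and 5 paralogs are too few to be told apart from that share. At an adjusted p under 0.05, 3 of the 5 passed after infarction. At an unadjusted p under 0.05, 2 were higher and 2 lower after infarction, beside 4755 and 4251 of the 17480 genes tested. Between the arms 1, Ell, was lower with A10i at that limit. DESeq2 called 1 of the paralogs, Itpripl1, lower after infarction and none between the arms, and limma-voom called none in either comparison. With library size alone, 1 was higher after infarction. Fnip1, which binds folliculin as Fnip2 does, was at 12.6 ± 0.31, 11.8 ± 0.98 and 12.4 ± 0.91 CPM per kb in sham, DMSO and A10i hearts (SD, n = 3, 4 and 4), above Fnip2 in each group. Its log2 fold change was -0.06 ± 0.07 (SE) after infarction and 0.07 ± 0.09 for A10i against DMSO. Ell, the founding member of the Ell2 family, was at 6.18 ± 0.52, 8.59 ± 1.17 and 6.24 ± 0.79 CPM per kb. Its log2 fold change was 0.24 ± 0.11 after infarction (edgeR adjusted p = 0.0874) and -0.46 ± 0.12 for A10i against DMSO (adjusted p = 0.151).

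Itpkb, a kinase for the same inositol phosphate as Itpkc, was more abundant than Itpkc, at 10.3 ± 0.68, 8.11 ± 0.88 and 9.15 ± 1.04 CPM per kb. Its log2 fold change was -0.25 ± 0.09 after infarction (edgeR adjusted p = 0.0408) and 0.18 ± 0.11 for A10i against DMSO (adjusted p = 0.501), opposite in sign to Itpkc in both. Itpripl1 and Itpripl2, which resemble Itprip in sequence, had log2 fold changes of -0.32 ± 0.09 (adjusted p = 0.0144) and 0.39 ± 0.13 (adjusted p = 0.0334) after infarction, and of 0.20 ± 0.10 and -0.14 ± 0.15 for A10i against DMSO. Whether a member and its paralog differed in response was not tested.

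**Figure D3:**
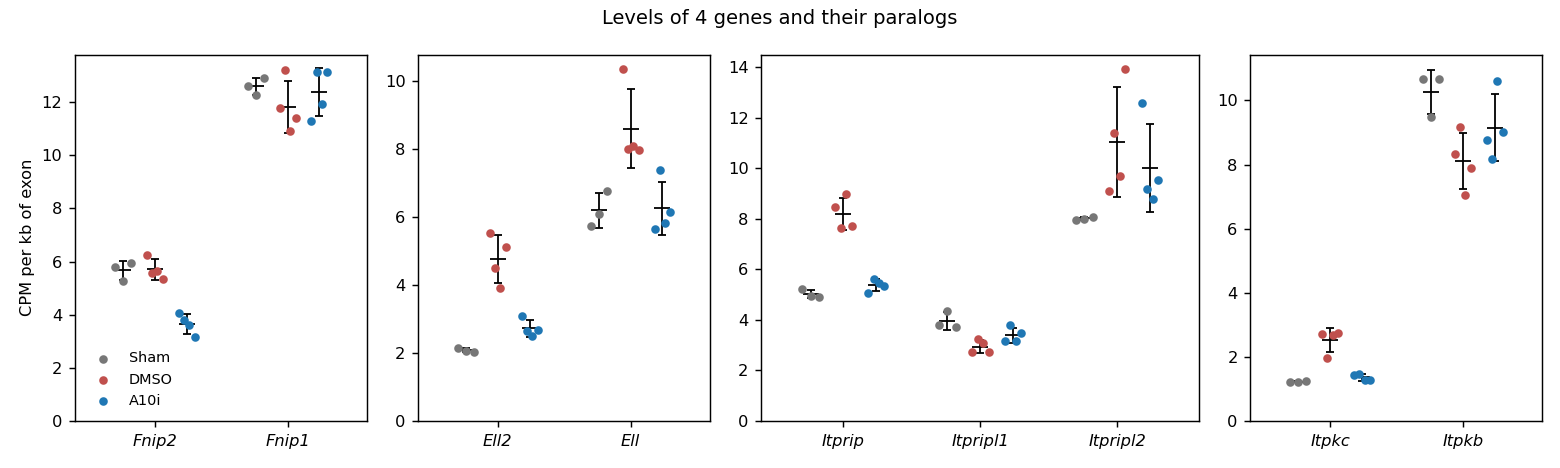
Levels of 4 genes and their tested paralogs in CPM per kilobase of exon, on linear axes from 0; points are single hearts (grey sham, red DMSO, blue A10i) and bars give the mean and SD. Fnip1 and Itpkb stand above Fnip2 and Itpkc in each group, while Fnip2 and Itpkc are lower in A10i than in DMSO hearts.

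Most genes listed as working with the 5 did not pass the test after infarction, as held for all genes tested. The counts called below stand beside 14.9% higher and 11.5% lower among all genes tested. No listed gene passed an adjusted p under 0.01 for A10i against DMSO in edgeR, which called no gene there, or in DESeq2 or limma-voom. At an unadjusted p under 0.05 in edgeR, A10i against DMSO had 1 higher and 2 lower genes around folliculin, 0 and 3 of the elongation complex, 3 and 1 of inositol phosphates and 1 and 0 of retroelement silencing. Of 28 genes around folliculin, AMPK and the mTORC1 kinase, 3 were higher and 6 lower, with a median log2 fold change of -0.13 beside 0.0024 for all genes tested. The higher ones were Gpnmb (4.59 ± 0.94 SE), Prkag2 (0.35 ± 0.08) and Tfe3 (0.40 ± 0.11). Among the lower ones were Mitf (-0.64 ± 0.13) and Tfeb (-0.41 ± 0.09), which like Tfe3 encode transcription factors kept in check at the lysosome, and Prkab1 (-0.40 ± 0.09), a subunit of AMPK. The counts were 7 higher and 1 lower with scaling by library size alone, and 0 and 0 with sham mouse S1, S2 or S3 left out.

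Of 25 tested genes of the super elongation complex and the machinery of polymerase pausing, 2 were higher and 2 lower, with a median of 0.03. Cdk9 (0.39 ± 0.07 SE), the kinase that releases paused polymerase, and Nelfe (0.39 ± 0.09), a subunit of the pausing factor NELF, were higher, and Zc3h8 (-0.79 ± 0.13) and Ice2 (-0.41 ± 0.08) were lower. Ell2 itself, at 0.79, was not counted in the list. The counts were 9 and 1 with library size alone, 2 and 4 in DESeq2, and 0 to 1 higher and 1 to 2 lower with S1, S2 or S3 left out.

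Of 26 tested genes of inositol phosphates and phospholipase C, 3 were higher and 5 lower, with a median of -0.08. Itpk1 (0.56 ± 0.13 SE) and Impa1 (0.43 ± 0.10), enzymes of inositol phosphate turnover, and Plcg2 (0.68 ± 0.13), a phospholipase of blood cells, were higher. Plcg1 (-0.63 ± 0.07), Plcb4 (-0.49 ± 0.11) and Itpr1 (-0.44 ± 0.07), which encodes a receptor of the kind that Itprip binds, were lower. The counts were 5 and 1 with library size alone, and 0 to 1 higher and 2 lower without S1, S2 or S3. Of 20 genes of retroelement silencing, Uhrf1 (1.91 ± 0.44), which recruits the maintenance DNA methyltransferase, was the one called, and the median was 0.06 beside 1.09 for Resf1. No gene of that list was called without S1, S2 or S3 or when every gene with a count was kept, and 2 were higher with library size alone.

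**Figure D4:**
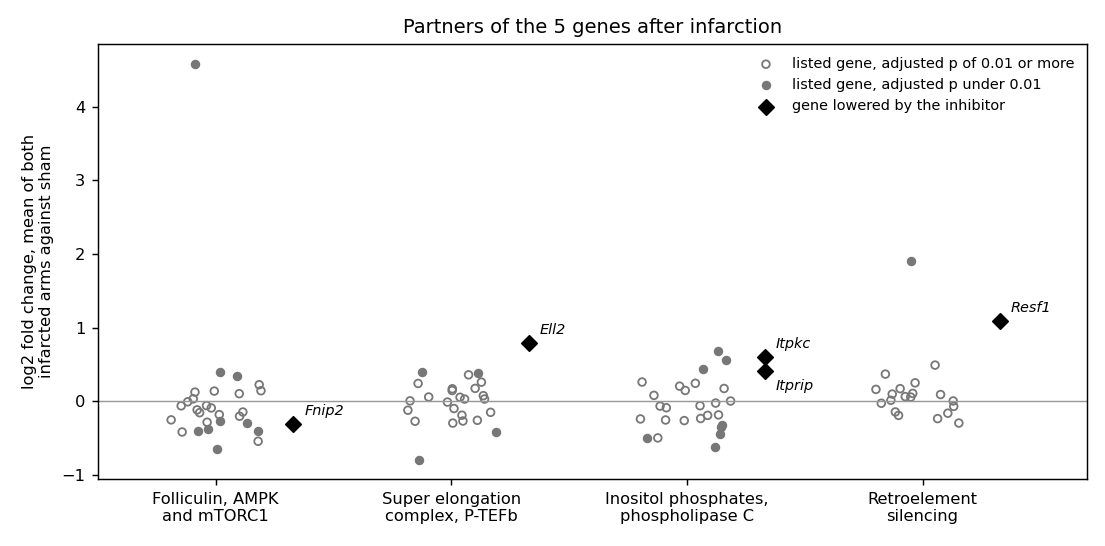
Each circle is a listed gene that was tested, placed by its log2 fold change for the mean of both infarcted arms against sham, filled where the adjusted p was under 0.01; diamonds are the 5 genes. Resf1, Ell2, Itpkc and Itprip lie above the medians of their lists, which were 0.06, 0.03 and -0.08, and Fnip2 lies at -0.31, below its list's median of -0.13.

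Neighbouring annotation bears on how firmly the counts can be assigned. BC024978, on the opposite strand of Itpkc, shares 1273 exonic bases with it and held 255 to 370 counts per library, and it was not called after infarction or between the arms. The genes that overlap Fnip2, Ell2 and Itprip held at most 12 counts in any library. The strand setting of the counting is not given in the sources used here, so reads in the bases shared with BC024978 may have been left out or assigned to either gene.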

How the data were processed

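The authors sequenced poly(A) RNA with a strand-specific kit as 100 bp paired-end reads, aligned it with GSNAP to mm10 (GRCm38) and counted it over Ensembl 98 genes with featureCounts 2.0.1; the deposited values are raw counts. Spike-in rows were removed. Counts were tested with edgeR's quasi-likelihood test (TMM, filterByExpr, Benjamini-Hochberg), after a check on simulated data: all 11 libraries in 1 fit for infarction against sham, 8 for A10i against DMSO, at an adjusted p of 0.01. CPM used the TMM factors, and log2 CPM a prior count of 2. Mice are separate animals; no numbers pair them. Genes named are the 5, their paralogs and overlapping genes, the falls around an adjusted p of 0.05, up to 3 higher and 3 lower called genes per list, and the 3 genes most alike in level. Single cell type markers are named for a level of 0 in sham or for their group order. Members and lists were chosen with earlier results of these data known. The dispersions were first estimated robustly. That setting, the spike-in rows and the library sizes were varied after the adjusted p-values for A10i against DMSO had been seen, and none moved a gene across 0.05. DESeq2, limma-voom, other scalings and filters, and leaving out each mouse were alternatives.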

Additional observations from a re-analysis of the deposited data

Results flagged for a closer look

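Itpkc in DMSO mouse A127 stood at 10.4 CPM, against 14.1 to 14.5 in the other DMSO mice, a gap of 0.916 of the group's range, past Dixon's limit for 4 samples. It was the one value set apart in 10 groups tested, and chance sets apart about 1 in 20. The cause was not tested.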

How the results depend on the processing

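After infarction, Resf1 and Ell2 kept their direction in all 23 alternatives run. These include each arm alone against sham, from which no call is read since the arms differ by the contrast that chose the genes. They also include a threshold of 0.05, which a call at 0.01 cannot miss. In the other alternatives Resf1 and Ell2 kept an adjusted p under 0.01. The log2 fold change in A10i mice alone was 0.11 for Itprip and 0.16 for Itpkc. That of Fnip2 was 0.0066 in DMSO mice alone, and Fnip2 missed the threshold with library size alone (-0.11). With 1 mouse left out, Fnip2 ranged from -0.36 to -0.27 and Itpkc from 0.58 to 0.65; Fnip2 lost its call without each sham mouse, A127, A128, A129, A117 or A119, and Itpkc without each sham mouse. Counts of genes higher and lower after infarction were 3937 and 789 with library size alone, which shifts the median of all genes to 0.20, and 4042 and 3477 at a threshold of 0.05. They ranged from 1322 to 2803 and from 889 to 2174 with 1 mouse left out, and were lowest without a sham mouse. For A10i against DMSO, where the main counts are 0, DESeq2 called 104 higher and 123 lower, keeping every gene with a count 18 and 25, 1 fit of all libraries 2 and 9, and a threshold of 0.05 gave 3 and 9; with 1 mouse left out counts were 0 to 1 in each direction, the lower one without A105 and the higher one without A127. The 5 genes were lower with A10i in all 19 alternatives, which refit the hearts that chose them, so this is a description. Robust dispersions, spike-in rows kept and library sizes of all genes, tried after the data were seen, changed no call of the 5 genes, and with spike-in rows kept 2614 genes in place of 2613 were higher after infarction. Apart from fits with fewer mice or another threshold, the cause was not tested. No paired analysis was possible because the groups share no replicate numbers.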

Other observations

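Over the 11 hearts, the genes whose log2 CPM was most like each of the 5, among genes with a mean log2 CPM of at least 1, were Mdn1, Nat10 and Tma16 for Fnip2 (Pearson's r 0.91 to 0.94), Ercc1, Tbcb and Adamts9 for Resf1 (0.97 to 0.99), Rrp15, Bop1 and Pprc1 for Ell2 (0.98), Rdh10, Itpkc and Eif4ebp1 for Itprip (0.96 to 0.97), and Wdr43, Bhlhe40 and Rrp15 for Itpkc (0.97). The hearts form 3 groups that these values share, so the likeness is a description.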
